A study of Mus musculus with 4 samples.

Results

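The 44 genes described here are interferon-stimulated genes and genes of class I antigen presentation, taken by symbol from a list of names out of the 25239 gene symbols in the deposited count table. The rule reads the symbol and no measured value. The list itself, like the pathway and marker lists below, was chosen with earlier results of these data known. All 44 were in the table, and all 44 were among the 15522 genes with enough reads to test. Polyadenylated transcripts of primary mouse chondrocytes, the cells of cartilage, were sequenced. The 2 control libraries came from Tiki2 fl/fl mice, in which both copies of Tiki2 (gene symbol Trabd2b, a protease that inactivates Wnt ligands) carry sites that Cre can cut out. The 2 conditional knockout (cKO) libraries came from mice with the same floxed alleles plus a Cre labelled Col2a1-Cre/ERT or Col2a-CreERT2. All 4 were treated with 4-hydroxytamoxifen, which activates this Cre, so the controls carry the floxed alleles and the drug but no Cre, and effects of Cre activity and of Tiki2 deletion cannot be told apart. The Cre is driven from Col2a1, so deletion is limited to cells that used that promoter. The labels used here give neither age nor sex, and nothing says whether the replicates of a group were separate animals. The 2 controls came from animals of different sex by their Xist and Ddx3y counts, given with the library totals, and so were not repeats of 1 animal, whereas the spread between the cKO libraries may be technical. By the same counts both cKO libraries were like control replicate 2, so sex was not balanced between the genotypes. Its part in the differences between genotypes was not tested. The p-values cover the spread between these 4 libraries alone.

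Interferons are secreted proteins that cells release on sensing viral or misplaced nucleic acid. Type I interferons bind the receptor made of Ifnar1 and Ifnar2, whose kinases Jak1 and Tyk2 activate Stat2. A complex that holds Stat2 and Irf9 then enters the nucleus and binds the interferon-stimulated response element in the promoters of antiviral genes, while interferon gamma acts at the gamma-activated site. Class I antigen presentation uses the immunoproteasome to cut proteins, the Tap transporter to carry the peptides, and a class I heavy chain paired with B2m to display them on almost every cell. Many cells keep a low level of this programme without infection.

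The promoters of the members held the response element letters more often than promoters at large. Windows are shown for the 6 members of widest range over libraries, among those with a match and a mean of at least 1 CPM. Promoter windows from RefSeq (GRCm38.p6, 250 bases before to 50 after each start, 300 bases in all) were found for 34 of the 44 members by symbol. The response element was searched on both strands as GAAA, any 2 bases, GAAA (on the other strand TTTC, any 2 bases, TTTC), and the gamma-activated site as TTCNNNGAA, which is its own reverse complement as a pattern. At least 1 response element match lay in 16 of 34 members (47.1%), against 3.99% of all 27025 genes in the promoter table and 3.6% of the 12086 tested genes in it. At least 1 gamma-activated site match lay in 8 of 34 members (23.5%), against 9.55% of all genes and 8.2% of tested genes, and 4 members had both. A match describes letters only, and no match says only that these letters are not in the window. The 6 windows below are the 250 bases upstream of the start, written 5′ to 3′ on the gene's strand, with matches to the response element pattern in capitals.
Ifit1 (chr19:34640639-34640888, plus strand): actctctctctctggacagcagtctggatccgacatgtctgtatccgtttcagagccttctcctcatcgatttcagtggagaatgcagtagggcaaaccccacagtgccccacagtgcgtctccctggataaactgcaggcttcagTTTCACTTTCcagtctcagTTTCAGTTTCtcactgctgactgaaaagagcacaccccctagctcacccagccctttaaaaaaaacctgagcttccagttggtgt
Rsad2 (chr12:26456453-26456702, minus strand): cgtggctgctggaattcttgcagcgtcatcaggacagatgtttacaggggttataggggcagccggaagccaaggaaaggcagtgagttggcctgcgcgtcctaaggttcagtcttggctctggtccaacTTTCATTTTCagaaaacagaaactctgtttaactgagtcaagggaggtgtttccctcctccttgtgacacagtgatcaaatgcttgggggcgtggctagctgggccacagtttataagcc
Ifit3b (chr19:34607707-34607956, plus strand): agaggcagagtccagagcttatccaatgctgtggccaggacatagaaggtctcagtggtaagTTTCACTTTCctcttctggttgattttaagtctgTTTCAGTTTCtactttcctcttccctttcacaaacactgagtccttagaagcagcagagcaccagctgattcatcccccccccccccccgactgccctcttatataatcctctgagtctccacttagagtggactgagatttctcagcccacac
Ifit3 (chr19:34583279-34583528, plus strand): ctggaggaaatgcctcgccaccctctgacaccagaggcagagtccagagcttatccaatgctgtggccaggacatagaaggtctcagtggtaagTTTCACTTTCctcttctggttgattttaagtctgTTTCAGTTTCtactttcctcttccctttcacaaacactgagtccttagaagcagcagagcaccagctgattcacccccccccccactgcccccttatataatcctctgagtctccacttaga
Cxcl10 (chr5:92348890-92349139, minus strand): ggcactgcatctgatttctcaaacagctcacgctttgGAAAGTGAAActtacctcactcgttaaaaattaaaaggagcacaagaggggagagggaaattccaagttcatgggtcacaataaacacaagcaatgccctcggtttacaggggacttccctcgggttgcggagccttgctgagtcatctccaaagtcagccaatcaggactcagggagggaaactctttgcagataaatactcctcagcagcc
Oas1a (chr5:120907526-120907775, minus strand): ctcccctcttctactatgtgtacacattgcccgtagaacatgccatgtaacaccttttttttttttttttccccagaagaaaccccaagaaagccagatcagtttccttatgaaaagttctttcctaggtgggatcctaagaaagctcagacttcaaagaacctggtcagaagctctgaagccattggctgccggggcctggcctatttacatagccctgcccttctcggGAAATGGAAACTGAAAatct
Ifit1, Ifit3 and Ifit3b each carry 2 separate matches on the reverse strand. Those of Ifit1 begin at positions -104 and -85 from the start, and those of Ifit3 at -156 and -122. The Ifit3 and Ifit3b windows share an unbroken run of 169 identical bases, as the genes are near-identical copies. Oas1a has overlapping matches just upstream of its start, at -20 and -14, and Cxcl10 has 1 match, at -213.

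Shorter elements of further members are given to show how the letters repeat within the families, again in capitals where they match.
Isg15 (chr4:156200875-156200896, minus strand): GAAAAGGAAACCGAAACAGAAA
Bst2 (chr8:71537587-71537602, minus strand): GAAAATGAAACTGAAA
Gbp2 (chr3:142620604-142620613, plus strand): TTTCACTTTC
Gbp3 (chr3:142559999-142560014, plus strand): TTTCAGTTTCTATTTC
B2m (chr2:122147548-122147557, plus strand): GAAACTGAAA
Isg15 holds 3 overlapping matches, the first of them at -78. B2m, with a match at -139, was the only one of the 6 class I genes with the response element pattern. The pattern was found in all 4 of the guanylate-binding protein and chemokine genes, in 9 of the 17 antiviral effectors with a window, in 1 of 4 regulators and in 1 of 2 RNA sensors.

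**Figure D1:**
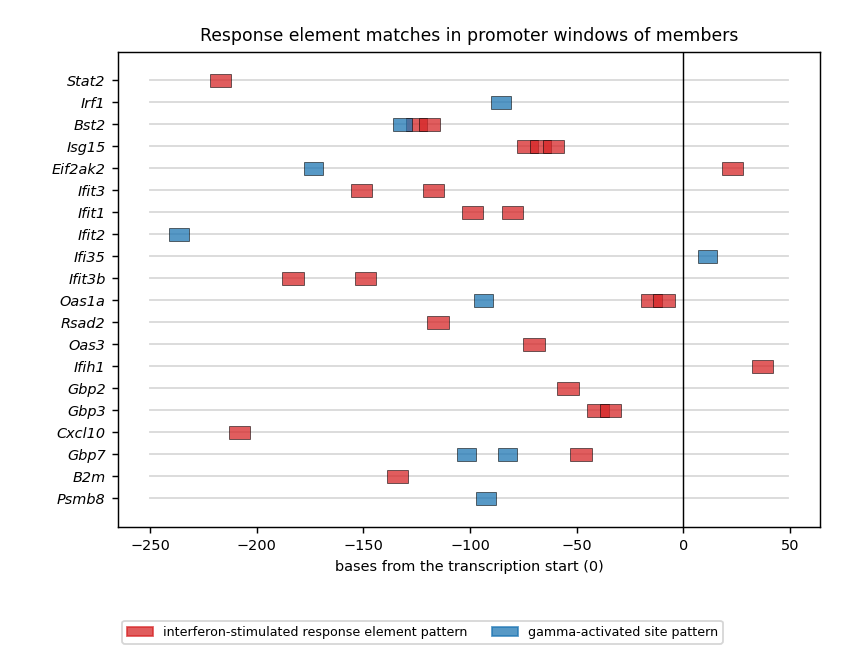
Position of each pattern match in the promoter windows, in bases from the transcription start at 0, for the members with at least 1 match (red, response element; blue, gamma-activated site). Grey lines are the windows, and response element matches lie on both sides of the start but mostly upstream of it.

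The libraries were deep and held total counts from 66750140 (control replicate 1) to 78873054 (cKO replicate 2). Levels are given as CPM, the read count of a gene relative to the library's total, where the total was scaled by TMM factors that correct for differences in RNA composition. Trabd2b had 28513 and 31314 counts in the controls, against 22643 and 29473 counts with the Cre. This corresponds to 436 and 415 CPM against 292 and 363 CPM, so both cKO libraries lay below both controls (24.9% of all genes did). The log2 fold change was -0.38 ± 0.11 (SE, edgeR adjusted p = 0.148), so the targeted gene did not pass the edgeR test, while DESeq2 gave an adjusted p of 0.00743. Reads outside a deleted exon would still be counted, and the deleted exons are not given in the labels. Chondrocyte markers identified the cells in all 4 libraries. Their summed level (over library size alone) was 21564 and 25381 CPM in the controls and 12341 and 8941 CPM in the cKO libraries. All 8 had a log2 fold change below 0, and edgeR called 6 of them lower. With control replicate 1 or 2 left out, all 8 stayed below 0, with medians of -1.15 and -1.08, but most of the calls were lost. Fibroblast markers summed to 4969 and 4708 against 6607 and 7200 CPM, with 2 of 6 called higher by edgeR (0 without either control replicate), and adipocyte markers to 202 and 204 against 306 and 500.04 CPM, with 0 of 7 tested called by edgeR, 5 higher at an unadjusted p under 0.05 and 4 called by DESeq2. In bulk RNA, fewer cells of a type and less RNA per cell cannot be told apart. Control replicate 1 was the only library rich in the female transcript Xist (112185 counts, against 36 to 171) and the only one with 0 counts of the Y-linked Ddx3y (11073 to 12085 in the others).

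No member passed the test between genotypes. The edgeR quasi-likelihood test, with Benjamini-Hochberg adjustment over all genes tested and a threshold of 0.05, called 0 of the 44 higher in cKO and 0 lower, where it called 61 of 15522 genes higher (0.393%) and 141 lower (0.908%). At an unadjusted p under 0.05, 2 members, Lgals3bp and Ifi27l2a, were higher (8.36% of all genes were) and 0 lower (8.88%). DESeq2 called 1 member higher, Lgals3bp, and 0 lower (3.7% and 4.58% of the 14017 genes to which it gave an adjusted p). Fitted log2 fold changes lay above 0 for 22 members and below 0 for 22, from -0.74 (Oas3) to 1.31 (Ifi27l2a). Their median was -0.01, beside 0.00 over all genes, and the median size without regard to sign was 0.15 for both. With 2 libraries per group and a wide spread in the controls, single intervals were broad, and a p above the threshold does not show that the genotypes were alike.

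**Figure D2:**
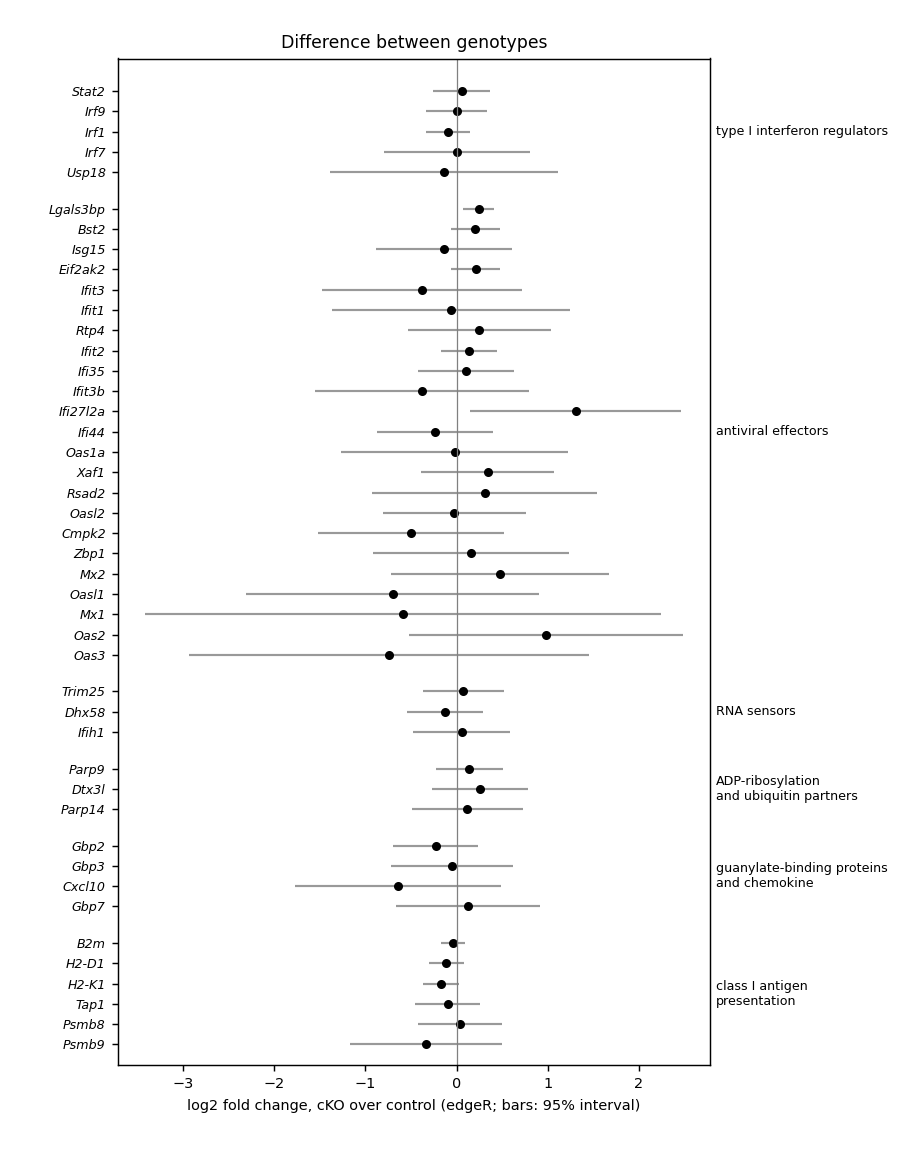
Log2 fold change of cKO over control for each of the 44 members, with its 95% interval derived from the edgeR fit, grouped by role. All 44 points sit between -0.74 and 1.31, and the interval is narrow for the abundant B2m, Lgals3bp, H2-K1 and H2-D1 and widest for Mx1.

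The members differed mainly between the 2 control libraries. Control replicate 2 was above control replicate 1 in 39 of 44 members (88.6%), against 50.6% of all genes tested. The median gap between them was 0.69 on the log2 scale (log2 of CPM plus 0.1), where all genes had a median gap of 0.00 and a median absolute gap of 0.13. In 16 members (36.4%) control replicate 2 was more than 2-fold above control replicate 1, against 3.44% of all genes. The cKO libraries did not show this: cKO replicate 2 was above cKO replicate 1 in 23 members (52.3%, against 49.9% of all genes), with a median gap of 0.01 and a median absolute gap of 0.17, near the 0.13 of all genes.

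**Figure D3:**
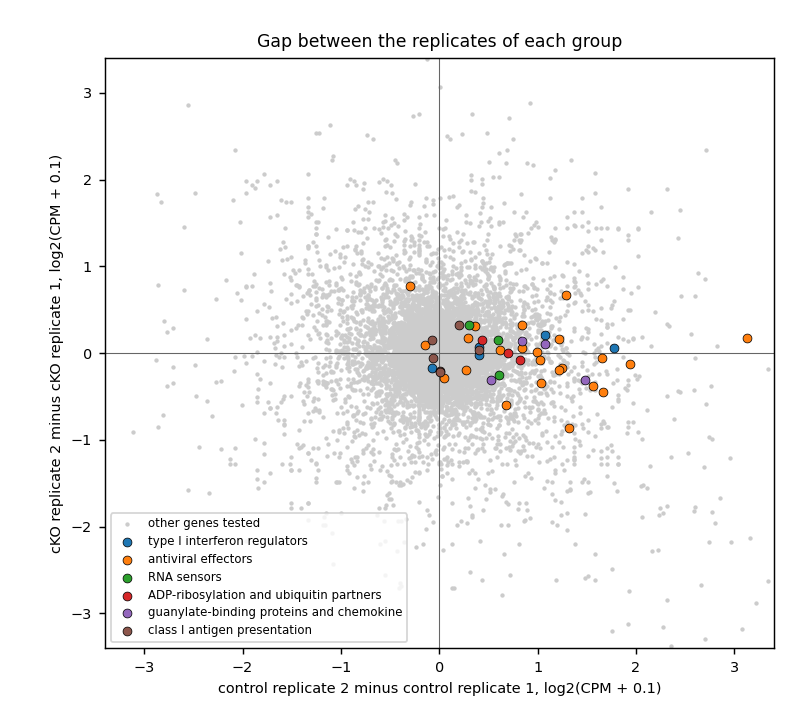
Log2 gap between the 2 control libraries (horizontal axis, control replicate 2 minus 1) against that between the 2 cKO libraries (vertical axis, cKO replicate 2 minus 1), with members by role over all other genes tested. Most members lie to the right of 0 without a matching shift upward or downward, while class I genes sit near the centre, and 50 other genes lie outside the axes, which end at 3.4.

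The cKO libraries lay between the controls for most members. Control replicate 1 was the lowest of the 4 libraries in 32 members (72.7%, against 25.7% of all genes), and control replicate 2 the highest in 32 (72.7%, against 26.1%). Both cKO libraries fell between the controls in 25 members (56.8%, against 11.9% of all genes). Relative to each gene's own mean, the median member stood at -0.40 in control replicate 1, 0.29 in control replicate 2, 0.04 in cKO replicate 1 and 0.02 in cKO replicate 2 on the log2 scale. The gap between the controls was larger than the gap between the group means in 35 members (79.5%, against 47.3% of all genes), and that between the cKO libraries in 22 (50%, against 46.9%). Taking either gap, at least 1 was larger than the gap between the group means in 40 members (90.9%, against 62.9% of all genes). The remaining 4 were Oas2, Oas3, Ifi27l2a and Lgals3bp. Here a gap between single libraries is set against a gap between means of 2 libraries, so the shares of all genes are the reference.

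The 2 genotypes did not overlap in 8 members, a smaller share than over all genes. Both cKO libraries were above both controls for Oas2, Bst2, Ifi27l2a and Lgals3bp, 4 of 44 (9.09%, against 24.9% of all genes). Both were below both controls for Oas3, Psmb9, H2-K1 and H2-D1, again 4 of 44 (9.09%, against 24.9%). The direction between groups followed which control was used. Without control replicate 1, 36 of 44 members lay below 0 (81.8%, against 49.2% of all genes) with a median log2 fold change of -0.25. Without control replicate 2, 38 of 44 lay above 0 (86.4%, against 50.9%) with a median of 0.40. edgeR called 0 members in either, where it called 0.0311% and 0.119% of all genes tested, and the smallest adjusted p of a member was 0.131 and 0.098. Leaving out a cKO library gave a median of 0.00 in both cases and again 0 members called (4.9% of all genes without cKO replicate 1, 0.997% without cKO replicate 2). In all, 31 of 44 members changed sign when 1 of the 4 libraries was left out.

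**Figure D4:**
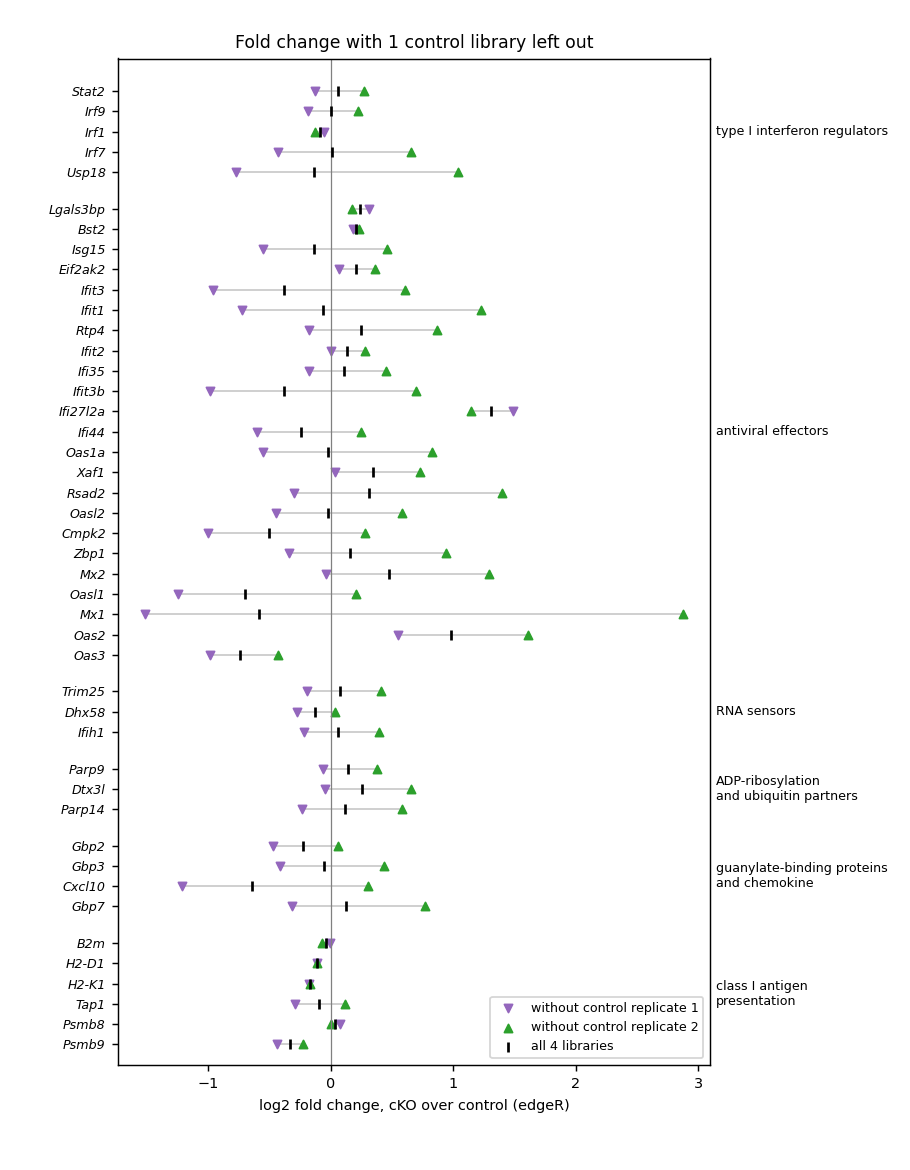
Log2 fold change of each member with all 4 libraries (bar) and with either control left out (triangles), by role. Without control replicate 1 the members lie mostly below 0 (36 of 44), and without control replicate 2 mostly above 0 (38 of 44).

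The library that was low for these genes was also the only one with Xist above 171 counts, and the part of that difference in the gap between controls was not tested, since only 1 library was of this kind. Leukocyte markers were low and followed no single order. The 14 markers summed to 25.3 and 18.3 CPM in control replicates 1 and 2 and 21.7 and 23.2 CPM in cKO replicates 1 and 2. Tyrobp, Cd3e, Ncr1 and Siglech had 0 counts in all 4 libraries, and Ptprc, the pan-leukocyte antigen CD45, had 16 counts in control replicate 1 and 0 in the others. Cd68 made up much of the sum (12.5 and 8.30 CPM in control replicates 1 and 2), and Lyz2 (3.26 and 1.59 CPM) and Cd14 (8.67 and 7.25 CPM) were also lower in control replicate 2. Csf1r, the macrophage growth factor receptor, went the other way between the controls, at 0.596 and 1.26 CPM, with 0.993 and 1.54 CPM in cKO replicates 1 and 2. The part of these cells in the gap between controls was not tested. The 5 endothelial markers summed to 0.434 and 0.906 CPM in the controls and 0.968 and 0.811 CPM in the cKO libraries, with Emcn at 0 counts throughout. The adipocyte sums were 202 and 204 CPM in the controls, but single markers differed in both directions (Adipoq 4.14 and 6.64 CPM, Cfd 5.24 and 3.58 CPM), with a median absolute gap of 0.54 over the 7 tested, beside 0.13 over all genes.

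Among the 5 regulators, the partners of the transcription complex that carries the type I signal were well expressed. The log2 gap between the controls was 0.40 for Stat2 and 0.41 for Irf9, beside a median absolute gap of 0.13 over all genes. Stat2, a transcription factor activated at the type I receptor, had 55.7 and 73.6 CPM in control replicates 1 and 2 and 65.5 and 69.0 CPM in cKO replicates 1 and 2. Irf9, the DNA-binding part of that complex, had 32.1 and 42.6 CPM in the controls and 37.6 and 37.1 CPM in the cKO libraries. Control replicate 1 was lowest and control replicate 2 highest for both, and the cKO libraries lay between them, so the groups overlapped. The log2 fold change was 0.06 ± 0.13 (SE, edgeR adjusted p = 0.874) for Stat2 and 0.00 ± 0.14 (SE, edgeR adjusted p = 0.997) for Irf9. Usp18, the protease that strips Isg15 from proteins and damps signalling at Ifnar2, had 3.43 and 12.0 CPM in the controls and 6.89 and 7.19 CPM in the cKO libraries. The controls stood 3.51-fold apart while the cKO libraries were 1.04-fold apart and between them, and the log2 fold change was -0.14 ± 0.52 (SE; 95% interval -1.39 to 1.11; edgeR adjusted p = 0.926). Irf7, which amplifies type I interferon production, had its extremes in the same libraries (6.85 and 14.5 CPM). Irf1, which interferon gamma induces strongly, was the exception among the regulators, at 17.8 to 20.7 CPM with control replicate 1 highest. The median gap between controls over the 5 was 0.41.

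The 23 antiviral effectors had the widest median gap between controls of the 6 roles, 1.02. Control replicate 2 was above control replicate 1 in 21 of them and more than 2-fold above it in 12. Ifit1, which binds viral RNA that lacks the host cap mark, had 9.02 and 35.0 CPM in control replicates 1 and 2 and 22.1 and 20.2 CPM in cKO replicates 1 and 2. The controls differed 3.88-fold, the cKO libraries lay between them with cKO replicate 2 at 0.913-fold of cKO replicate 1, and the log2 fold change was -0.06 ± 0.54 (SE; 95% interval -1.37 to 1.25; edgeR adjusted p = 0.971). Ifit1 (ENSMUSG00000034459.8, GENCODE M21 on mm10) lies on chromosome 19 from 34640871 to 34650009, next to Ifit2, Ifit3 and Ifit3b, and the 4 genes span 34550694 to 34650009.

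Ifit3b, a near copy of Ifit3, had 4.19 and 13.4 CPM in the controls and 6.90 and 6.64 CPM in the cKO libraries, so that the controls stood 3.20-fold apart. Its log2 fold change was -0.38 ± 0.48 (SE; 95% interval -1.56 to 0.79; edgeR adjusted p = 0.754). Since reads of Ifit3 and Ifit3b may be shared between them, their summed level over library size alone was also taken, which was 16.5 and 49.6 CPM in the controls and 29.2 and 24.1 CPM in the cKO libraries. The order of the libraries was the same for the sum and for Ifit3b, with control replicate 1 lowest and control replicate 2 highest. Ifit2, the third member of the cluster, spread less, from 23.2 CPM (control replicate 1) to 30.1 CPM (cKO replicate 1).

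Rsad2, or viperin, which makes a nucleotide that stops viral polymerases, had 2.52 and 8.21 CPM in the controls and 7.72 and 5.61 CPM in the cKO libraries. Control replicate 1 stood apart below the other 3 libraries, and the log2 fold change was 0.31 ± 0.51 (SE; 95% interval -0.92 to 1.54; edgeR adjusted p = 0.815). Cmpk2, its neighbour on chromosome 12, a nucleotide kinase, had 2.31 and 5.62 CPM in the controls and 2.98 and 2.63 CPM in the cKO libraries, so that only control replicate 2 stood above the rest. Mx1, a dynamin-like GTPase that traps viral nucleocapsids, was near the limit of detection, with 4 counts in control replicate 1, 99 in control replicate 2, 33 in cKO replicate 1 and 40 in cKO replicate 2. This corresponds to 0.0612 and 1.31 CPM in the controls and 0.426 and 0.492 CPM in the cKO libraries, and the log2 fold change was -0.59 ± 1.17 (SE; 95% interval -3.42 to 2.24; edgeR adjusted p = 0.852). The controls lay on either side of the cKO libraries, and with 4 counts in control replicate 1 the 21.5-fold gap between controls is imprecise. The related Mx2 had 0.719 CPM in control replicate 1 and 1.64 to 1.88 CPM in the other 3 libraries.

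Oligoadenylate synthases sense double-stranded RNA and switch on the nuclease RNase L. The members named Oas and the related Oasl genes did not all follow the same order of libraries. Oas1a (1.59 to 4.12 CPM) and Oasl2 (5.14 to 10.5 CPM) were lowest in control replicate 1 and highest in control replicate 2. Oasl1 was highest in control replicate 2 (1.34 CPM) and lowest in cKO replicate 1 (0.413 CPM). Oas2 was lowest in control replicate 1 (0.26 CPM) and highest in cKO replicate 2 (0.898 CPM), with a log2 fold change of 0.98 ± 0.62 (SE, edgeR adjusted p = 0.485), and Oas3 was at or under 0.225 CPM in all 4. Isg15, a ubiquitin-like protein that is attached to other proteins, had controls 2.01-fold apart at 6.83 and 13.7 CPM, with the cKO libraries at 9.34 and 9.43 CPM between them.

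The 2 effectors with the highest CPM followed another order of libraries than the Ifit genes. Lgals3bp, a secreted matrix glycoprotein that binds galectin-3 and that interferon induces, had 524 and 475 CPM in control replicates 1 and 2 and 572 and 609 CPM in cKO replicates 1 and 2. Both cKO libraries were above both controls and control replicate 2 was the lowest. The order of the 2 controls was thus the reverse of that in most members. The means were 499.7 ± 34.3 CPM in control and 591 ± 26.1 CPM in cKO (SD, n = 2), and the log2 fold change was 0.24 ± 0.07 (SE; 95% interval 0.07 to 0.41; edgeR adjusted p = 0.164). DESeq2 gave an adjusted p of 0.0226 for it, and it lies on chromosome 11 from 118392751 to 118402092. Eif2ak2, or PKR, a kinase that halts translation on double-stranded RNA, had 55.4 and 67.6 CPM in the controls and 66.9 and 75.2 CPM in the cKO libraries. Control replicate 1 was lowest and cKO replicate 2 highest, the groups overlapped, and the log2 fold change was 0.21 ± 0.11 (SE; 95% interval -0.06 to 0.47; edgeR adjusted p = 0.404).

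Ifi27l2a, a small protein of the Ifi27 family that is strongly induced by interferon in many tissues, had the highest log2 fold change of the 44. Its level was 0.673 and 0.530 CPM in the controls and 1.07 and 1.91 CPM in the cKO libraries. Both cKO libraries were above both controls, cKO replicate 2 was 1.78-fold of cKO replicate 1, and the log2 fold change was 1.31 ± 0.48 (SE; 95% interval 0.15 to 2.47; edgeR adjusted p = 0.239). The summed adipocyte markers were also highest in cKO replicate 2 (500.04 CPM) and next in cKO replicate 1 (306 CPM), and their part in this value was not tested. Bst2, or tetherin, which holds budding virus at the cell surface, was at 38.0 and 39.1 CPM in the controls and 48.9 and 40.1 CPM in the cKO libraries, so its groups were separate, but the group means differed by less than the cKO libraries did. Zbp1, Ifi44, Ifi35, Rtp4 and Xaf1 were each lowest in control replicate 1.

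The 3 RNA sensors, which recognise viral RNA in the cytoplasm or regulate that recognition, had a median gap between controls of 0.60. Trim25, the ubiquitin ligase that acts with the sensor RIG-I, had 41.6 and 63.0 CPM in control replicates 1 and 2 and 52.3 and 57.9 CPM in cKO replicates 1 and 2. Ifih1, or MDA5, which binds long double-stranded RNA, had 8.96 and 13.7 CPM in the controls and 12.8 and 10.8 CPM in the cKO libraries. Control replicate 1 was lowest and control replicate 2 highest for both, and the log2 fold change was 0.08 ± 0.18 (SE, edgeR adjusted p = 0.885) for Trim25 and 0.06 ± 0.22 (SE, edgeR adjusted p = 0.929) for Ifih1. Dhx58, or LGP2, which tunes Ifih1, spread least of the 3, from 9.36 to 12.8 CPM.

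Parp9, Parp14 and Dtx3l form a group of ADP-ribosylating enzymes and a ubiquitin ligase encoded side by side on chromosome 16, between 35832874 and 35972605. Parp9 had 23.9 and 32.5 CPM in the controls and 29.6 and 32.7 CPM in the cKO libraries, and its partner Dtx3l had 12.7 and 20.8 CPM in the controls and 20.03 and 20.1 CPM in the cKO libraries. For both, control replicate 1 was the lowest, and the other 3 libraries were close to each other. The log2 fold change was 0.14 ± 0.15 (SE, edgeR adjusted p = 0.711) for Parp9 and 0.26 ± 0.22 (SE, edgeR adjusted p = 0.609) for Dtx3l. Exons of Parp9 and Dtx3l overlap on opposite strands and the strand setting of the counting is not stated in the sources, so their reads cannot be told apart with certainty. The median gap between controls over the 3 genes was 0.70.

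The guanylate-binding proteins are GTPases that attack the membranes of intracellular pathogens, and Cxcl10 is a chemokine that draws T cells, and both answer to interferon gamma as well as type I interferon. Gbp2 had 21.9 and 31.6 CPM in the controls and 25.3 and 20.4 CPM in the cKO libraries. Gbp7 had 6.76 and 14.3 CPM in the controls and 11.1 and 11.9 CPM in the cKO libraries. Control replicate 2 was the highest library for both, and control replicate 1 was lowest for Gbp7 but not for Gbp2, where cKO replicate 2 was. The log2 fold change was -0.23 ± 0.19 (SE, edgeR adjusted p = 0.611) for Gbp2 and 0.12 ± 0.32 (SE, edgeR adjusted p = 0.892) for Gbp7. Cxcl10 stood 2.86-fold apart between the controls (3.10 and 8.87 CPM), with 4.26 and 3.42 CPM in the cKO libraries. Its log2 fold change was -0.64 ± 0.47 (SE, edgeR adjusted p = 0.547), and the median gap between controls over the 4 genes was 0.96.

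The 6 class I genes had a median gap between controls of 0.00, beside 0.84 in the other 38 members, 35 of which were higher in control replicate 2. B2m, the invariant light chain, had 1261 and 1204 CPM in control replicates 1 and 2 and 1221 and 1178 CPM in cKO replicates 1 and 2. H2-D1, a classical heavy chain, had 600.2 and 602 CPM in the controls and 597 and 515 CPM in the cKO libraries. The H2-D1 controls were 1.003-fold of each other and cKO replicate 2 was lowest, while for B2m control replicate 1 was highest and the groups overlapped. The log2 fold change was -0.04 ± 0.06 (SE; 95% interval -0.17 to 0.10; edgeR adjusted p = 0.78) for B2m and -0.11 ± 0.08 (SE, edgeR adjusted p = 0.54) for H2-D1. When TMM factors were not applied, that of B2m was 0.025, and H2-D1 and Psmb9 no longer had separate groups, which left 2 members below. H2-K1, the other classical heavy chain, also had cKO replicate 2 lowest (410.4 CPM, against 478 to 501 CPM in the other 3), and its log2 fold change was -0.17 ± 0.08 (SE, edgeR adjusted p = 0.362). The 2 heavy chains share much of their sequence, and their summed level over library size alone was 1077 and 1076 CPM in the controls and 1091 and 954 CPM in the cKO libraries. Tap1, the peptide transporter, was the class I gene with the widest gap between controls (15.3 and 20.3 CPM), and its exons overlap those of Psmb9 on the opposite strand. The immunoproteasome subunits Psmb8 (4.46 to 4.95 CPM) and Psmb9 (1.2 to 1.84 CPM) were both lowest in cKO replicate 1.

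**Figure D5:**
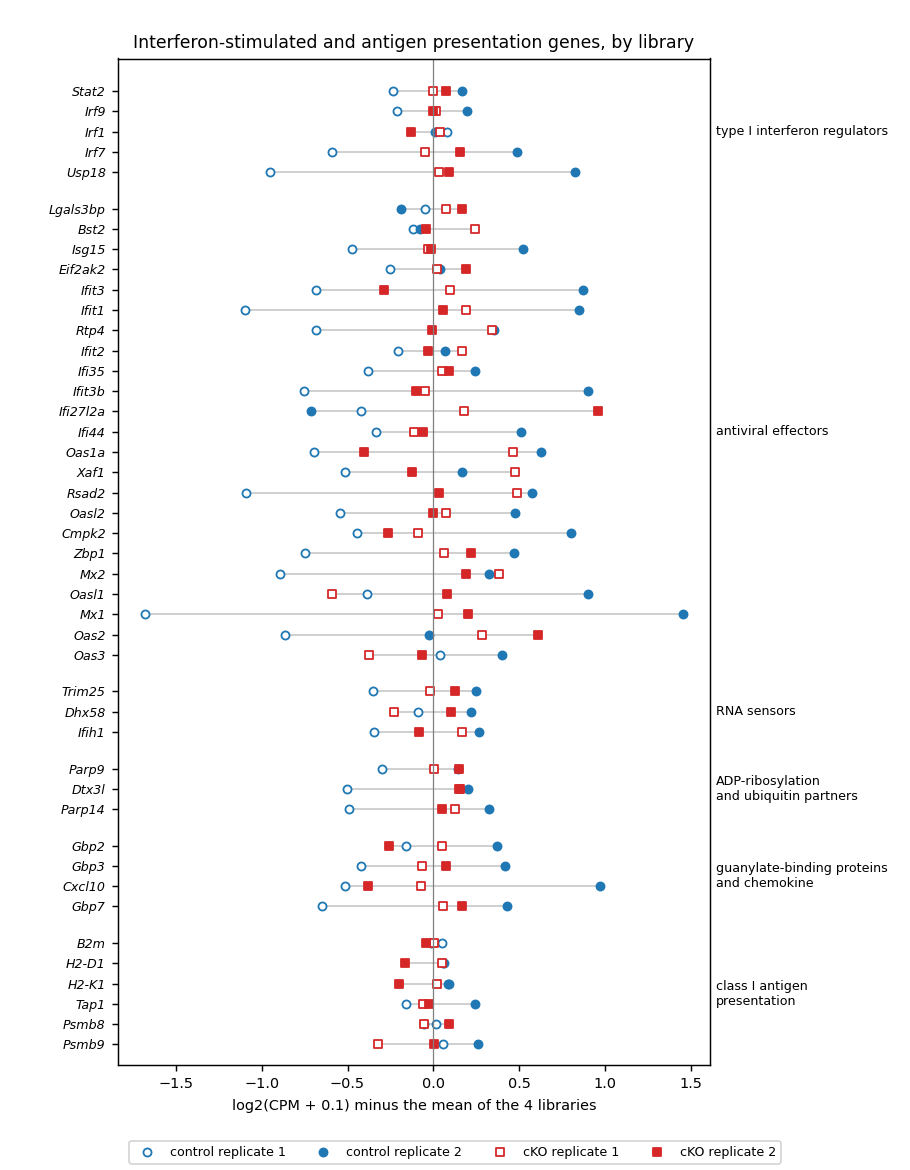
Log2 level of each member in each of the 4 libraries relative to that gene's mean over the libraries, with genes in rows grouped by role, open symbols for replicate 1 and filled symbols for replicate 2. Control replicate 1 is low and control replicate 2 high for most antiviral genes, with medians over the 44 of -0.40 and 0.29, while cKO replicates 1 and 2 sit near 0 (0.04 and 0.02).

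Levels of different genes were compared per kilobase of annotated exon. Over all 4 libraries the mean was highest for B2m (1414 CPM per kb), followed by H2-D1 (224), Lgals3bp (191), H2-K1 (161) and Bst2 (46.0). Isg15, Eif2ak2 and Ifit3 came next at 13.01, 12.96 and 12.7 CPM per kb, and with Isg15 ranging from 9.04 to 18.2 CPM per kb over the libraries their order is within the spread. The lowest were Mx1 (0.151), Oas2 (0.135) and Oas3 (0.0214 CPM per kb). Exons of 18 of the 44 members overlap another annotated gene, including Cxcl10 with Art3, Irf7 with Phrf1 and Irf9 with Rnf31, and their counts carry that uncertainty.

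Members with the response element letters had a wider median gap between controls, given as a description with no test. The median gap was 0.92 in the 16 members with a match (from -0.07 to 1.94, with 7 more than 2-fold) and 0.50 in the 18 with a window but no match (from -0.14 to 1.29, with 4 more than 2-fold). All class I genes but B2m are in the set without a match, and the median gap between controls of the 6 class I genes was 0.00. Ifit3 and Ifit3b, near-identical copies, both count in the set with a match. The part of gene class in the gap between controls was not tested. The gap between genotypes had medians of 0.04 and 0.03. No window was at hand for Mx1, Mx2, Usp18, Oas2, Zbp1, Dhx58, Ifi27l2a, Rtp4, Parp9 and Parp14, which are in neither count.

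The rest of the pathway was read from 7 lists of 121 names, of which 106 genes were tested. edgeR called 0 higher and 1 lower, Ptpn2, and DESeq2 called 4 higher and 7 lower, where it called 3.7% and 4.58% of all genes. At an unadjusted p under 0.05, 10 were higher (9.43%) and 9 lower (8.49%), near the 8.36% and 8.88% of all genes, which are also the background for each list. Of the 11 interferon ligands, 10 had 0 counts in all 4 libraries, among them Ifnb1, the alpha interferons listed and Ifng. At 3 counts, a count of 0 allows up to 0.0449 CPM in control replicate 1 and 0.0380 CPM in cKO replicate 2, for counting error only. The other ligand, Ifnz, was at 0.127 to 0.288 CPM over library size alone.

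Receptor and signalling genes were present, and 0 of the 10 on this list were called by edgeR (2 higher and 2 lower at an unadjusted p under 0.05, or 20% each, and 0 higher and 2 lower by DESeq2). Ifnar1 had 93.2 and 96.1 CPM in the controls and 104 and 107 CPM in the cKO libraries, with both cKO libraries above both controls and a log2 fold change of 0.16 ± 0.06 (SE, edgeR adjusted p = 0.226). Ifnar2 had 52.1 and 50.2 CPM in the controls and 54.0 and 53.6 CPM in the cKO libraries. The interferon gamma receptor chains were similar in all libraries, at 35.7 to 38.4 CPM for Ifngr1 and 54.4 to 63.4 CPM for Ifngr2. The 3 lowest p-values of this list were those of Jak2 (log2 fold change -0.33 ± 0.08, SE; edgeR adjusted p = 0.108), Ifnlr1 (log2 fold change -1.33 ± 0.37, SE; edgeR adjusted p = 0.146) and Ifnar1 (log2 fold change 0.16 ± 0.06, SE; edgeR adjusted p = 0.226). Over the 10 genes the median gap between controls was -0.05, and control replicate 2 was higher in 3.

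Ptpn2, a phosphatase that switches off Jak1, was the only pathway gene that edgeR called lower. It had 95.1 and 90.8 CPM in the controls and 69.9 and 63.0 CPM in the cKO libraries, with both cKO libraries below both controls. Its log2 fold change was -0.48 ± 0.07 (SE; 95% interval -0.66 to -0.31; edgeR adjusted p = 0.0434), and DESeq2 gave an adjusted p of 1.36e-05. The call was lost without control replicate 1 (edgeR adjusted p = 0.178), control replicate 2 (0.198) or cKO replicate 2 (0.0703), each with a similar fold change (-0.45, -0.52 and -0.41). Chondrocyte markers also fell between these groups, and their part in this value was not tested. Of the other 8 negative regulators tested, 0 were called by edgeR, with 0 at an unadjusted p under 0.05 and 0 by DESeq2. The lowest p-values among them were those of Rnf125 (log2 fold change 0.36 ± 0.16, SE; edgeR adjusted p = 0.327) and Irf2 (log2 fold change 0.25 ± 0.19, SE; edgeR adjusted p = 0.558).

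The 46 other interferon-stimulated genes were also mostly higher in control replicate 2 than in control replicate 1. Control replicate 2 was above control replicate 1 in 40 of 46 (87.0%, against 50.6% of all genes), control replicate 1 was lowest in 31, and the median gap was 0.44. edgeR called 0 of them (2 higher and 2 lower at an unadjusted p under 0.05, or 4.35% each, below the share of all genes, and 2 and 2 by DESeq2). The 3 lowest p-values were those of Slfn5 (log2 fold change 0.71 ± 0.16, SE; edgeR adjusted p = 0.101), Isg20 (log2 fold change -0.66 ± 0.16, SE; edgeR adjusted p = 0.11) and Ifitm3 (log2 fold change 0.39 ± 0.09, SE; edgeR adjusted p = 0.112). The 20 other class I genes had a median gap of 0.00, with control replicate 2 higher in 10, and edgeR called 0 (4 higher and 3 lower at an unadjusted p under 0.05, or 20% and 15%, and 1 and 1 by DESeq2). Their lowest p-values were those of H2-Q6 (log2 fold change -0.69 ± 0.16, SE; edgeR adjusted p = 0.104), Psme1 (log2 fold change 0.33 ± 0.08, SE; edgeR adjusted p = 0.115) and H2-T23 (log2 fold change 0.25 ± 0.06, SE; edgeR adjusted p = 0.122). The 14 nucleic acid sensing genes tested had a median gap of -0.04, and edgeR called 0 (2 higher, or 14.3%, and 0 lower at an unadjusted p under 0.05, and 1 higher by DESeq2), with the lowest p-values for Samhd1 (log2 fold change 0.20 ± 0.05, SE; edgeR adjusted p = 0.126), Sting1 (log2 fold change 0.35 ± 0.12, SE; edgeR adjusted p = 0.198) and Irf5 (log2 fold change 1.27 ± 0.74, SE; edgeR adjusted p = 0.452).

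Class II antigen presentation, normally a feature of specialised immune cells, summed to 29.8 to 43.7 CPM over library size alone, and 0 of 6 genes tested were called by edgeR (0 higher and 1 lower, or 16.7%, at an unadjusted p under 0.05, and 1 lower by DESeq2). H2-Ab1, a beta chain, had 26.5 and 32.9 CPM in the controls and 19.5 and 17.0 CPM in the cKO libraries, with both cKO libraries below both controls. Its log2 fold change was -0.70 ± 0.13 (SE; 95% interval -1.03 to -0.38; edgeR adjusted p = 0.0709), and DESeq2 gave an adjusted p of 0.000378. The other 2 lowest p-values of the list were those of H2-DMb1 (log2 fold change -0.26 ± 0.16, SE; edgeR adjusted p = 0.472) and Ciita (log2 fold change 0.85 ± 0.62, SE; edgeR adjusted p = 0.548). Ptprc was at 0 counts in 3 of the libraries and 16 in control replicate 1, and Tyrobp at 0 in all 4. Other leukocyte markers had reads in all 4, including Cd68 (626 to 820 counts), Csf1r (39 to 125) and Cd79a (17 to 33). Itgam (6 and 18 counts in cKO replicates 1 and 2) and Adgre1 (7 in cKO replicate 2) were at 0 elsewhere. The source of the H2-Ab1 reads was not tested.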

How the data were processed

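Poly(A) RNA of 4 libraries (2 control, 2 cKO) was sequenced, and the labels gave each library's group and number. The authors deposited unscaled read counts for each gene symbol. Per the submitters' processing notes, HISAT2 2.2.1, StringTie 2.1.7, Trim Galore 0.6.7, FastQC 0.11.9 and the build mm10 were used, with no roles stated. Which tool counted reads, with what strand setting and with what treatment of multiply matching reads, was not given in the sources used here.

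Genes were filtered by filterByExpr (minimum count 10), scaled by TMM and tested by genotype with the edgeR 4.0.16 quasi-likelihood test in R 4.3.3, adding no covariate. Adjustment was by Benjamini-Hochberg across 15522 genes, at 0.05. The biological coefficient of variation was 0.174. Replicate gaps use log2 of CPM plus 0.1. Total counts were 66750140, 77285899, 76425194 and 78873054, and floors of 3 counts cover counting error only. Exon lengths and positions come from GENCODE M21 (mm10), which holds all 44 symbols, and promoters from RefSeq (GRCm38.p6). DESeq2 1.42.0, library sizes without TMM, no filter, a replicate block and leaving out each library were the alternatives.

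The members, the 7 pathway lists and the 5 marker lists were chosen with earlier results of these data known. Values in every library are given for the 2 members of each role with the highest mean CPM and the 6 with the widest range over libraries. Of the pathway lists, the called genes, the receptors and the 3 lowest p-values per list are named, most by fold change alone. A gene that this rule names is not reported here. Values of Ifit2, Ifit3 with Ifit3b, Cmpk2, Mx2, Isg15, Oas2, Bst2, Cxcl10, H2-K1, Tap1 and the other members quoted beside them were added after values were seen.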

Additional observations from a re-analysis of the deposited data

How the results depend on the processing

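With edgeR, 0 members were called higher and 0 lower under every alternative run, and DESeq2 called 1, Lgals3bp, higher. Counts over all genes moved more. Genes called higher were 61 as reported, 116 with library sizes alone, 518 by DESeq2, 3 with a replicate block and 1 to 312 when 1 library was left out, and genes called lower were 141, and 642 by DESeq2, 20 with the block and 4 to 470. In those fits a lone library is assumed to vary like the other group. The most calls came without cKO replicate 1 (312 and 470) and the fewest without control replicate 1 (1 and 4). Pathway genes called higher were 0 as reported, 4 by DESeq2 and 0 to 1 with a library left out, and those called lower were 1, and 7 by DESeq2, 0 with the replicate block and 0 to 4. Nothing in the labels says whether the numbers pair the libraries. The deviations of control 1 and cKO 1 from their group means correlated at -0.155 over genes. With 2 libraries per group, this single value cannot decide whether they were paired. A crossed replicate block, chosen after seeing the data, called 223 genes higher and 341 lower, 0 members, and 1 and 4 pathway genes. The median log2 fold change of the members ranged from -0.25 (without control replicate 1) to 0.40 (without control replicate 2). Members with separate groups above control were 4, and 6 with library sizes alone, while those below control were 4, and 2 with library sizes alone. The share of all genes with separate groups under that scaling is not given here. Keeping all genes without the filter changed no member's sign and no call of a member, and the block changed no other call among members.

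Of the 44 log2 fold changes, none past the edgeR threshold, 5 changed sign with library sizes alone: Ifit1 (0.0056), Oas1a (0.041), Oasl2 (0.041), Gbp3 (0.012) and B2m (0.025). That scaling moved the median of all genes from 0.00 to 0.07. The replicate block turned 6 above 0: Usp18 (0.12), Ifit1 (0.23), Oas1a (0.061), Oasl2 (0.062), Mx1 (0.42) and Gbp3 (0.0033). Leaving out 1 library turned 31, with these ranges: Cmpk2 (-1.003 to 0.28), Cxcl10 (-1.21 to 0.31), Dhx58 (-0.30 to 0.037), Dtx3l (-0.050 to 0.66), Gbp2 (-0.47 to 0.061), Gbp3 (-0.41 to 0.43), Gbp7 (-0.32 to 0.77), Ifi35 (-0.17 to 0.45), Ifi44 (-0.60 to 0.25), Ifih1 (-0.22 to 0.40) and Ifit1 (-0.73 to 1.23). The same was so for Ifit3 (-0.96 to 0.61), Ifit3b (-0.99 to 0.69), Irf7 (-0.43 to 0.65), Irf9 (-0.19 to 0.22), Isg15 (-0.55 to 0.46), Mx1 (-1.51 to 2.87), Mx2 (-0.036 to 1.29), Oas1a (-0.55 to 0.83), Oasl1 (-1.25 to 0.20), Oasl2 (-0.45 to 0.59) and Parp14 (-0.24 to 0.59). It also held for Parp9 (-0.062 to 0.38), Psmb8 (-0.037 to 0.11), Rsad2 (-0.30 to 1.40), Rtp4 (-0.18 to 0.87), Stat2 (-0.13 to 0.27), Tap1 (-0.29 to 0.12), Trim25 (-0.19 to 0.41), Usp18 (-0.77 to 1.04) and Zbp1 (-0.34 to 0.94). The causes were not tested, and 2 libraries per group limit all of these values.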
